A study of Mirounga angustirostris with 8 samples.

Results

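The genes described here code for aminoacyl-tRNA synthetases, and they were chosen by symbol from the deposited table of read counts. A row was taken when its symbol was FARSA, FARSB or a 1-letter amino acid code followed by ARS, with or without the suffix 1 or 2, and when its reads summed to 80 or more over the 8 libraries. This gave 35 genes out of 24342 named rows, 19 for cytosolic enzymes and 16 with the suffix 2 for mitochondrial enzymes. All 35 passed the filter on low counts, and the lowest, WARS2, had 745 reads in all. RNA came from biopsies of the longissimus dorsi, the long muscle of the back, of wild adult female northern elephant seals (NES, Mirounga angustirostris). Pre-molt biopsies (libraries 5572A, 5842A, 6762A and C497A) were taken at most 5 days after the seals came ashore for the annual molt, and post-molt biopsies (4448B, 5572B, 9678B and X410B) after a mean of 34 days of molt, during which the seals fasted and moved little. The name of a library without its last letter is the seal, and seal 5572 alone has a library at both times. The study sampled more seals at both times, but low quality RNA gave poor sequencing in some samples. It kept the 4 with the most unique reads from each time, so the groups were compared as 4 unpaired libraries against 4. Time ashore, fasting and reduced activity changed together between the groups and cannot be told apart.

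Aminoacyl-tRNA synthetases join each amino acid to its own tRNA, the step that makes the genetic code readable by the ribosome. Most amino acids have a separate enzyme for the cytosol and for the mitochondrion, both coded in the nucleus, and the mitochondrial enzymes serve the few respiratory chain subunits that mitochondria translate themselves. The single genes KARS and GARS each make a form for both compartments. In the cytosol, several of the enzymes are held together with non-catalytic scaffold proteins in the multi-synthetase complex. Many cytosolic synthetase genes are known targets of ATF4, the transcription factor of the amino acid response. Muscle is the main store of body protein, which it can release as amino acids during fasting.

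Counts per library totalled 37900665 to 56143099 pre-molt and 30771344 to 61222301 post-molt. Expression values are CPM, counts relative to library size, with library sizes corrected for composition by TMM factors of 0.842 to 1.06 pre-molt and 1.01 to 1.14 post-molt. Log2 fold changes set post-molt against pre-molt and are given with a standard error (SE). They come from the quasi-likelihood test of edgeR, with p-values adjusted over the 14315 genes tested (Benjamini-Hochberg). Of 10 muscle fiber markers 8 had a row, with a summed level of 176910 to 286176 CPM pre-molt and 167520 to 238791 CPM post-molt. Of these 8, 6 had a log2 fold change below 0 (median -0.43, and 3 of the 8 were lower and 1 higher at an unadjusted p under 0.05). At that threshold 6.22% of all genes tested were lower and 5.2% higher. Fibroblast markers moved with the groups. All 10 had a log2 fold change below 0 (6 at an unadjusted p under 0.05), and their summed level was 505 to 1548 CPM pre-molt, highest in 5842A, and 227 to 518 CPM post-molt. Adipocyte markers summed to 731 to 920 and 438 to 858 CPM, with all 5 tested below 0 (median -0.98, 1 with an unadjusted p under 0.05), and endothelial markers to 449 to 586 and 410 to 463 CPM. In such bulk samples fewer cells of a type and less RNA per cell cannot be told apart, and the part of these other cells in the values below was not tested.

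Across the 35 synthetase genes the log2 fold change between pre-molt and post-molt muscle was within 0.5 of 0 for 24 (68.6%), a share near the 62.2% of all genes tested, and it ran from -1.01 (WARS2) to 0.67 (MARS). The glutaminyl-, lysyl-, mitochondrial methionyl- and mitochondrial valyl-tRNA synthetase genes (QARS, KARS, MARS2 and VARS2) were lower post-molt at an unadjusted p under 0.05, and the cytosolic methionyl-tRNA synthetase gene MARS was higher. By edgeR, 0 of the 35 genes passed an adjusted p of 0.05, a threshold that 0.349% of all genes tested passed (31 genes or 0.217% higher and 19 or 0.133% lower, and 40 and 10 genes with library sizes not scaled by TMM). Before adjustment, with p under 0.05, edgeR gave 4 genes lower (11.4%, against 6.22% of all genes tested) and 1 higher (2.86%, against 5.2%). DESeq2, the tool that the study's methods name, called QARS and KARS lower out of 34 genes with an adjusted p (5.88%, against 3.16% of all genes with one), and 0 higher, against 3.35%. By limma-voom 0 were called, against 0.384% of all genes higher and 0.272% lower. In 4 genes (QARS, KARS, RARS and MARS2) every post-molt library lay below every pre-molt library, as in 5.11% of all genes tested, and in 0 genes did the post-molt libraries all lie above, against 4.04% (9.16% of all genes in either direction). With library sizes not scaled by TMM, an alternative added after seeing the data, the groups were separate in KARS and QARS alone, both lower, as in 3.21% of all genes tested, and 6.13% of all genes were higher without overlap.

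**Figure D1:**
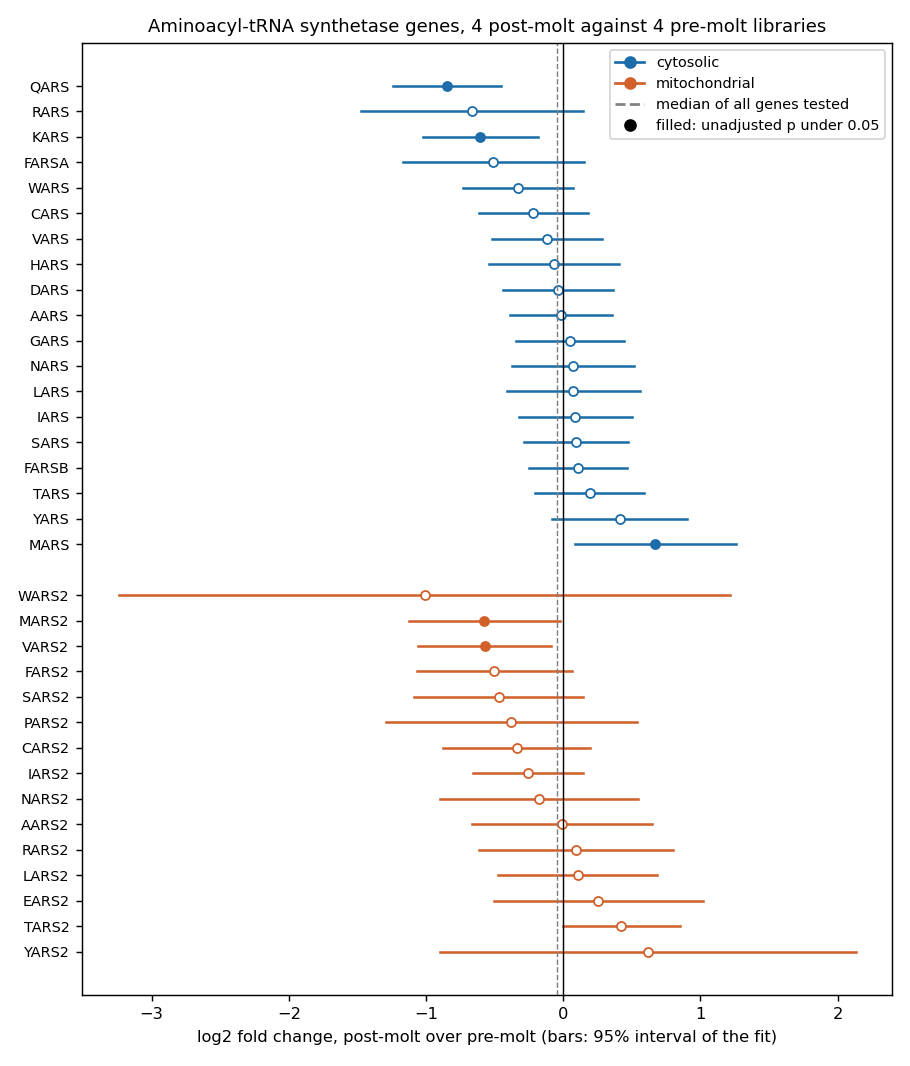
Log2 fold change of 34 of the 35 synthetase genes, post-molt over pre-molt (x axis), with the 95% interval of the edgeR fit (bars), for 19 cytosolic and 15 mitochondrial genes. Filled points are the 5 genes with an unadjusted p under 0.05. The cytosolic points gather around 0, and the mitochondrial ones have wider intervals and, over all 16, a median of -0.30.

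The cytosolic genes had a median log2 fold change of -0.02, with 10 below 0 and 9 above, and the mitochondrial genes one of -0.30, with 11 below 0 and 5 above. Over all genes tested the median was -0.04, and 53.6% were below 0. The mitochondrial median also lay below that of all genes in every alternative run, with a difference of -0.29 to -0.17. Such a difference between lists was not tested, since the genes of a list are not replicates. The mitochondrial genes were also measured less precisely. Their median read total over the 8 libraries was 4150, against 20011 for the cytosolic genes, and their median SE was 0.29, against 0.19. Between the 2 libraries of seal 5572, 10 of 19 cytosolic genes were higher post-molt and 10 of 16 mitochondrial genes were lower, with median differences of 0.03 and -0.19. Of all 14315 genes tested, 7210 were higher and 7105 lower in this seal, with a median difference of 0.003.

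The 7 cytosolic genes whose enzymes sit in the multi-synthetase complex had log2 fold changes from -0.85 (QARS) to 0.67 (MARS), with RARS and KARS also below 0 and DARS, LARS and IARS near it. QARS, which charges tRNA with glutamine, was at 74.7, 66.8, 64.2 and 75.3 CPM in pre-molt 5572A, 5842A, 6762A and C497A and at 46.1, 39.6, 38.6 and 31.7 CPM in post-molt 4448B, 5572B, 9678B and X410B. The post-molt libraries were all below the lowest pre-molt one. Its log2 fold change was -0.85 ± 0.18 (SE, n = 4 per group; edgeR adjusted p = 0.0629, DESeq2 adjusted p = 3.66e-04, limma-voom adjusted p = 0.0549). It stayed between -0.94 and -0.70 under all 18 alternatives, and with no filter on low counts QARS passed in edgeR too (adjusted p = 0.0456).

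KARS, the lysyl-tRNA synthetase gene that serves both compartments, was at 779, 661, 634 and 540 CPM pre-molt and at 442, 495, 367 and 414 CPM post-molt, in the library order given for QARS. Its groups did not overlap either, and C497A was the lowest pre-molt library and 5572B the highest post-molt one. KARS had a log2 fold change of -0.60 ± 0.19 (edgeR adjusted p = 0.200, DESeq2 adjusted p = 0.0124). RARS, for arginine, was at 21.5, 22.0, 24.0 and 23.7 CPM pre-molt and at 13.5, 18.7, 4.45 and 20.8 CPM post-molt. The 4 pre-molt values lay close together, whereas the post-molt values spread widely, with 9678B far below the others. The log2 fold change of RARS was -0.67 ± 0.37 (edgeR adjusted p = 0.560), and -0.37 without 9678B.

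MARS, which charges both initiator and elongator tRNA with methionine, was the complex member with higher values post-molt. It was at 45.4, 57.5, 28.2 and 79.8 CPM pre-molt and at 78.4, 76.6, 91.4 and 89.6 CPM post-molt. Pre-molt C497A reached the post-molt range, and 6762A lay furthest below it. MARS had a log2 fold change of 0.67 ± 0.27 (edgeR adjusted p = 0.342, unadjusted p = 0.0280, DESeq2 adjusted p = 0.176), which was 0.47 without 6762A and 0.95 without C497A. Its unadjusted p was over 0.05 without 5572A, 6762A, 9678B or X410B. DARS (-0.04 ± 0.18), LARS (0.07 ± 0.22) and IARS (0.09 ± 0.19) had log2 fold changes near 0. The 95% intervals of these 3 genes reached from -0.44 to 0.36, from -0.41 to 0.56 and from -0.32 to 0.50, so that changes of that size cannot be told from none here.

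The complex also holds EPRS, a single protein with a glutamyl- and a prolyl-tRNA synthetase part, whose symbol the rule does not take. It was at 125 to 265 CPM before and 166 to 241 CPM after the molt, with a log2 fold change of 0.15 ± 0.25 (edgeR adjusted p = 0.904). Of the scaffold genes, AIMP2 was at 29.0 to 34.6 CPM and 18.7 to 30.3 CPM (-0.26 ± 0.21, edgeR adjusted p = 0.721), and EEF1E1, also known as AIMP3, at 4.55 to 15.4 CPM and 8.64 to 14.3 CPM (0.26 ± 0.36, edgeR adjusted p = 0.875). The groups overlapped in each of these 3 genes. AIMP1 had no row under that symbol.

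**Figure D2:**
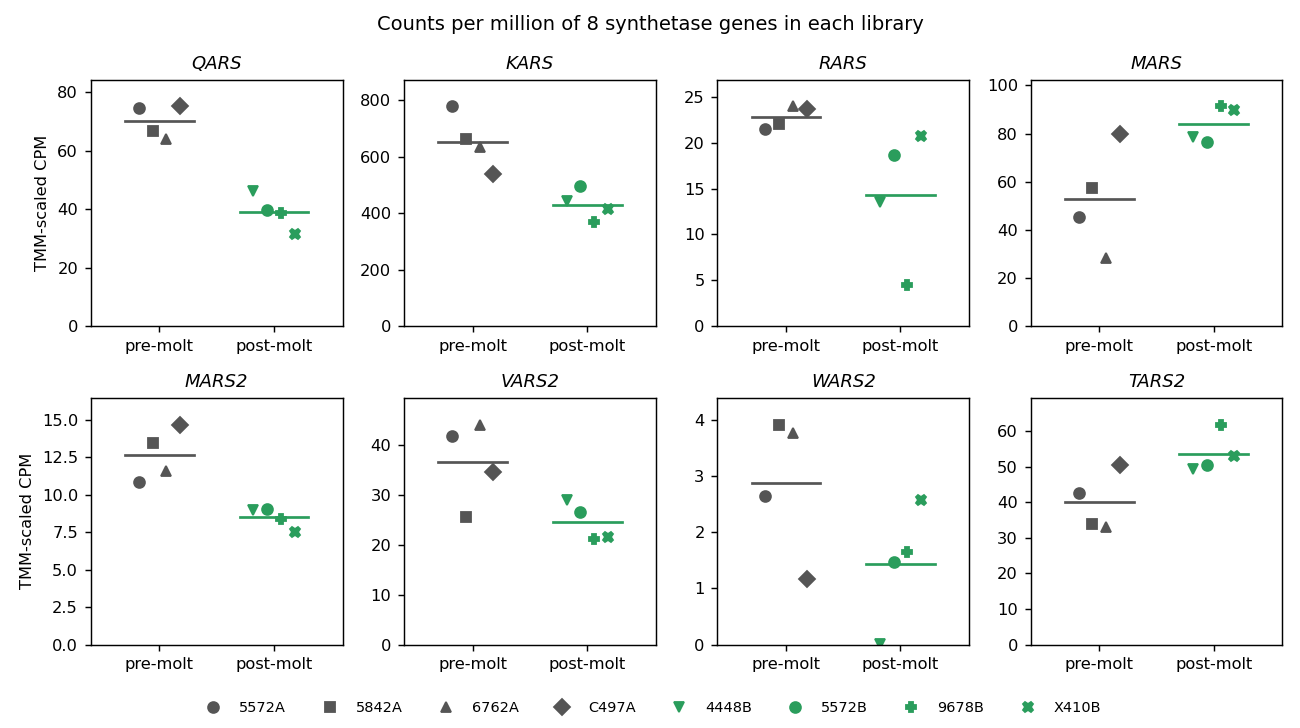
TMM-scaled CPM (y axis, from 0) of 8 synthetase genes in each of 4 pre-molt (grey) and 4 post-molt (green) libraries, with lines at group means and a symbol per library (the circle is seal 5572 in both groups). QARS, KARS, RARS and MARS2 show no overlap, MARS overlaps through C497A, and 9678B in RARS and 4448B in WARS2 lie far below the rest.

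The 12 cytosolic genes whose enzymes are not in the complex had a median log2 fold change of 0.02, and 11 of 12 were within 0.5 of 0, as were 62.2% of all genes tested. The difference from the complex genes was not tested. None had an unadjusted p under 0.05 in edgeR, and DESeq2 and limma-voom called 0. YARS, for tyrosine, had the highest value of these (0.41 ± 0.23, edgeR adjusted p = 0.554), with 22.1 to 40.1 CPM pre-molt and 33.4 to 52.4 CPM post-molt. WARS, the tryptophanyl enzyme gene that interferon induces, was at 53.9 to 64.1 CPM and 37.6 to 55.3 CPM (-0.33 ± 0.18, edgeR adjusted p = 0.560). Of 15 interferon response genes tested, 12 had a log2 fold change below 0 (median -0.49), against 53.6% of all genes tested. In 3 of them every post-molt library lay below every pre-molt one, against 5.11% of all genes. ISG15 (-0.82 ± 0.30) alone was lower at an unadjusted p under 0.05, against 6.22% of all genes. After adjustment edgeR and DESeq2 called 0, and the list was not tested as a set.

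The remaining single-chain enzymes outside the complex lay between CARS (cysteine, -0.22 ± 0.18) and TARS (threonine, 0.19 ± 0.18). In order of their log2 fold change between these 2, they were VARS (valine, -0.12), HARS (histidine, -0.07), AARS (alanine, -0.02), GARS (glycine, 0.05), NARS (asparagine, 0.07) and SARS (serine, 0.10). Their SE was 0.17 to 0.22, so neighbours in this order did not differ beyond their error. AARS, the closest to 0 of these 8, was at 75.9 to 95.2 CPM pre-molt and 75.7 to 95.6 CPM post-molt. TARSL2, a further cytosolic threonyl-tRNA synthetase gene that the symbol rule does not take, was at 85.4 to 96.7 CPM and 68.0 to 87.9 CPM (-0.23 ± 0.17, edgeR adjusted p = 0.688).

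FARSA and FARSB code for the 2 chains of 1 enzyme, the cytosolic phenylalanyl-tRNA synthetase, of which the alpha chain FARSA holds the catalytic part. FARSB had a mean of 104 ± 6.21 CPM before and 112 ± 11.0 CPM after the molt (SD), with a log2 fold change of 0.11 ± 0.17. FARSA was at 35.7, 18.9, 25.9 and 47.5 CPM pre-molt and 23.1, 22.8, 14.2 and 29.9 CPM post-molt (-0.51 ± 0.30, edgeR adjusted p = 0.597, and -0.25 without C497A). FARSA thus varied widely within both groups while FARSB did not. The log2 ratio of FARSA to FARSB counts was -1.78 ± 0.59 pre-molt and -2.36 ± 0.52 post-molt (SD, n = 4 each; two-sided exact permutation p = 0.229), a difference within the spread of the libraries.

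Summed over the 19 cytosolic genes, expression was 1692, 1633, 1656 and 1654 CPM pre-molt and 1484, 1419, 1352 and 1430 CPM post-molt, with no overlap between the groups. KARS alone held 32.6 to 46.0% of this sum pre-molt and 27.2 to 34.9% post-molt. Without KARS, the sum of the other 18 genes was 1005 ± 85.1 CPM pre-molt and 992 ± 51.2 CPM post-molt (SD, n = 4 each), and the groups overlapped. With library sizes not scaled by TMM the sums of all 19 overlapped, at 1373 to 1754 CPM pre-molt (mean 1579) and 1361 to 1691 CPM post-molt (mean 1503). The 16 mitochondrial genes summed to 439 to 530 CPM pre-molt and 383 to 462 CPM post-molt, of which IARS2 held 46.4 to 54.3% in every library. These are shares of reads, not of enzyme, since reads were not corrected for the length of the transcripts.

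**Figure D3:**
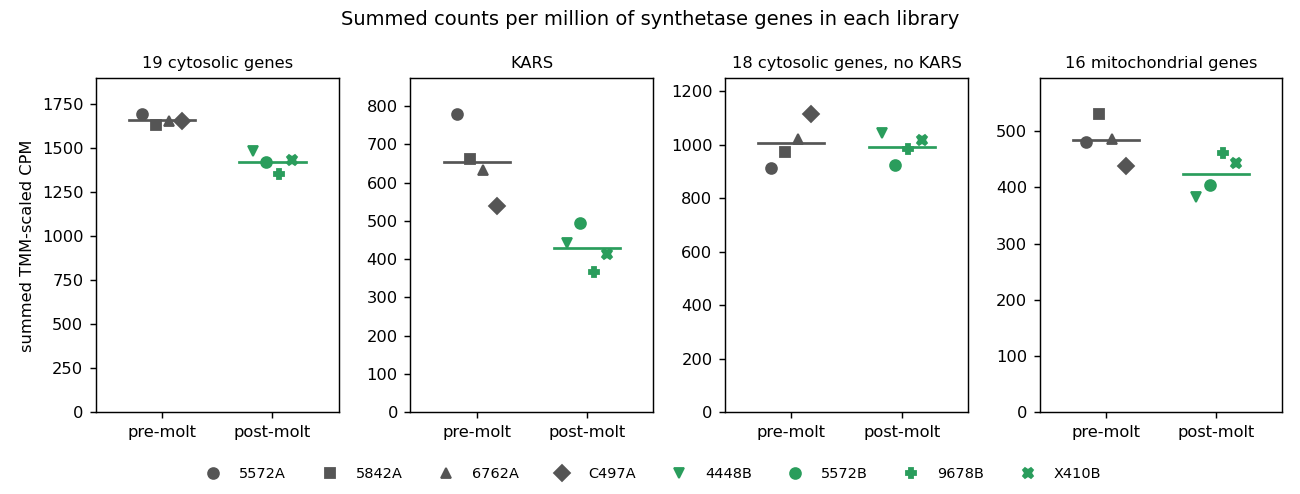
Summed TMM-scaled CPM (y axis, from 0) of the 19 cytosolic genes, of KARS, of the 18 cytosolic genes without KARS and of the 16 mitochondrial genes, in each pre-molt (grey) and post-molt (green) library, with group means as lines. The groups are apart for the cytosolic sum (not so with library sizes not scaled by TMM) and for KARS, and they overlap once KARS is left out.

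Among the mitochondrial genes, MARS2 and VARS2 had the smallest p-values. MARS2, for methionine, was at 10.8, 13.5, 11.6 and 14.7 CPM pre-molt and at 8.99, 9.08, 8.39 and 7.53 CPM post-molt. All post-molt values were below the pre-molt ones, and they lay closer together. MARS2 had a log2 fold change of -0.57 ± 0.25 (edgeR adjusted p = 0.400, unadjusted p = 0.0418), and its unadjusted p stayed under 0.05 without 5572A but not without any other single library. VARS2, for valine, was at 41.8, 25.6, 44.1 and 34.7 CPM pre-molt and at 29.0, 26.5, 21.1 and 21.7 CPM post-molt, and pre-molt 5842A lay within the post-molt range (-0.57 ± 0.22, edgeR adjusted p = 0.321, unadjusted p = 0.0243).

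TARS2, for threonine, was the mitochondrial gene nearest to a higher call, at 42.6, 34.0, 33.0 and 50.7 CPM pre-molt and 49.4, 50.6, 61.9 and 53.2 CPM post-molt (0.42 ± 0.20, edgeR adjusted p = 0.442, unadjusted p = 0.0522). Pre-molt C497A alone overlapped the post-molt group. YARS2, for tyrosine, had a larger value (0.62 ± 0.70) on few reads, 1.10 to 6.08 CPM and 1.18 to 8.94 CPM. Its log2 fold change was 0.10 without 9678B, -0.06 by limma-voom and -0.16 without 5842A and 9678B, in each group the least uniquely mapped library by the study's alignment summary.

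The other 12 mitochondrial genes had log2 fold changes from -1.01 to 0.25, none with an unadjusted p under 0.05. Values below 0 were found among others in FARS2 (phenylalanine, -0.50 ± 0.26), SARS2 (serine, -0.47 ± 0.28), PARS2 (proline, -0.38 ± 0.42), CARS2 (cysteine, -0.34 ± 0.25), IARS2 (isoleucine, -0.26 ± 0.18) and NARS2 (asparagine, -0.18 ± 0.33). AARS2 (alanine, -0.01 ± 0.30), RARS2 (arginine, 0.09 ± 0.33), LARS2 (leucine, 0.11 ± 0.27) and EARS2 (glutamate, 0.25 ± 0.35) were near or above 0. EARS2 also loads glutamate onto the mitochondrial tRNA for glutamine, which an amidotransferase then corrects. For that amidotransferase, for formylation of methionyl-tRNA and for tRNA editing, 9 genes were tested. At an unadjusted p under 0.05 edgeR gave 0 of them, against 5.2% of all genes tested higher and 6.22% lower. DESeq2 called 0 of the 7 with an adjusted p, against 3.35% and 3.16% of all genes with one. The amidotransferase subunit gene GATC was at 0.41 ± 0.24. DTD2, one of the tRNA editing genes, was at -1.11 ± 1.03 on at most 5.36 CPM.

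WARS2, the mitochondrial tryptophanyl-tRNA synthetase gene, was nearly without reads in 1 library. It had 111, 125, 204 and 70 reads in the pre-molt libraries and 53, 51 and 130 in post-molt 5572B, 9678B and X410B, but 1 read in 4448B, the deepest library. Its log2 fold change of -1.01 ± 1.03 was -0.59 without 4448B and -2.47 by limma-voom. RARS was the other gene in which the lowest library had under 0.5 times the CPM of the next lowest, with 138 reads in 9678B against 674 to 1411 in the other 7 libraries. Such a gap was found in 2 of the 35 synthetase genes, and in 14.5% of the 11246 genes tested with at least 745 reads in all. Reads of 1 seal species were counted here on the genome of another, the same for every library. Why 1 library lay so low in WARS2 and in RARS was not tested.

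To set cytosol against mitochondrion within each library, the log2 ratio of the cytosolic to the mitochondrial gene was taken for each amino acid with both, which gave 15 pairs (FARSA and FARSB were each paired with FARS2). Apart from the prior count added to both, the ratio does not depend on library scaling. The ratio was higher post-molt in 12 of 15 pairs, with a median difference of 0.26 log2 units, and in 10 of 15 in seal 5572. The methionine pair differed most clearly. MARS over MARS2 was 2.06, 2.09, 1.28 and 2.44 in pre-molt 5572A, 5842A, 6762A and C497A and 3.12, 3.07, 3.44 and 3.57 in post-molt 4448B, 5572B, 9678B and X410B. No post-molt library was as low as any pre-molt one, and the mean ratio was higher by 1.33 log2 units (1.97 ± 0.49 against 3.30 ± 0.24, SD; two-sided exact permutation p = 0.0286, the smallest that 4 against 4 libraries can give, and 0.214 adjusted over the 15 pairs).

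FARSB over FARS2 also showed no overlap, at 2.62 to 3.10 pre-molt and 3.44 to 3.61 post-molt, a difference of 0.60 (exact permutation p = 0.0286, 0.214 adjusted over the pairs). IARS over IARS2 differed by 0.36 (exact permutation p = 0.0571, adjusted 0.286) and VARS over VARS2 by 0.43 (exact permutation p = 0.114, adjusted 0.429), both with overlap. The other 11 pairs had an exact permutation p of 0.229 to 0.971. The pairs lower post-molt were RARS over RARS2 (-0.93), TARS over TARS2 (-0.25) and YARS over YARS2 (-0.15). In the tryptophan pair the mean difference was 1.41, and the ratio in 4448B was 9.92 against 4.04 to 5.02 in the other post-molt libraries. After adjustment 0 of 15 pairs passed. With 0.0286 as the smallest possible p, a few fully separate pairs among 15 could not pass. The adjusted result therefore does not decide on any single pair.

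**Figure D4:**
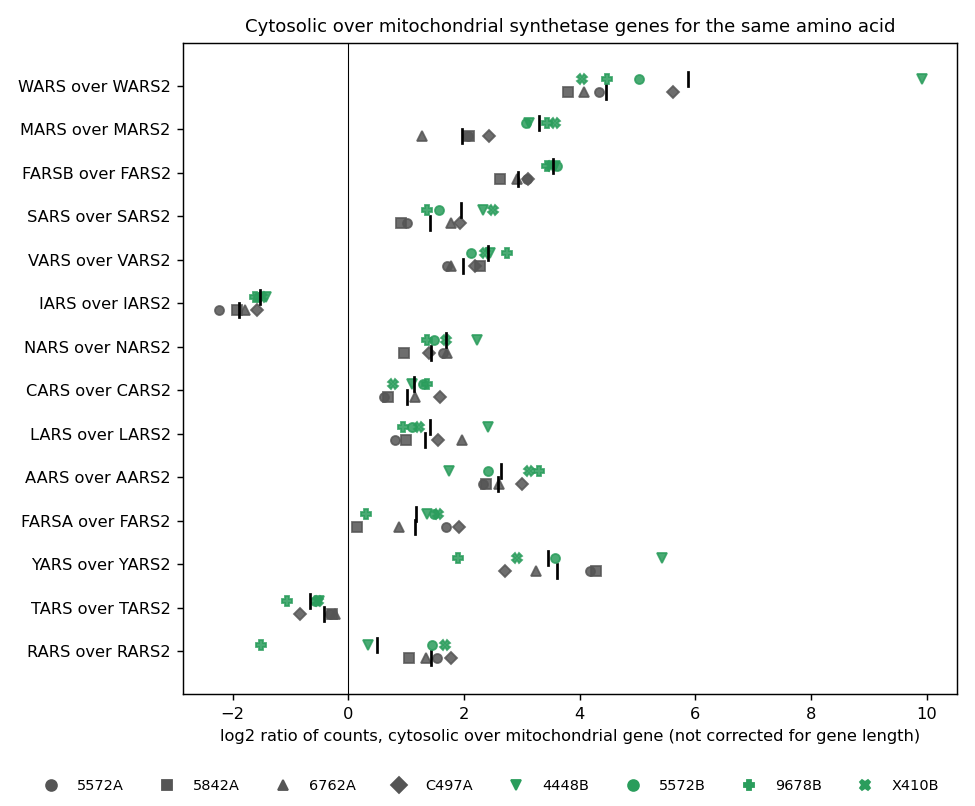
Log2 ratio of counts of the cytosolic over the mitochondrial gene for 14 of the 15 pairs (x axis, not corrected for gene length), in each pre-molt (grey, lower row of a pair) and post-molt (green, upper row) library, with black ticks at group means. The groups are apart in MARS over MARS2 and in FARSB over FARS2 and overlap in the other 12 pairs shown.

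Elongation factors bring charged tRNA to the ribosome. Of the 8 genes tested for them, 6 had a log2 fold change below 0 and 2 above, with a median of -0.65. Before adjustment (p under 0.05) edgeR gave 5 lower, against 6.22% of all genes tested, and after it 0. DESeq2 called the same 5 lower, against 3.16% of all genes (EEF1A2, EEF1B2, EEF1D, EEF1G and the mitochondrial TUFM). EEF1A2, the muscle form of the factor that carries aminoacyl-tRNA, was at 8697, 8219, 6412 and 5649 CPM pre-molt and at 4069, 3923, 4177 and 3869 CPM post-molt. The post-molt values were almost level and all below the pre-molt ones (-0.85 ± 0.20, edgeR adjusted p = 0.0830, DESeq2 adjusted p = 2.73e-04). EEF1D, of the complex that recharges EEF1A with GTP, was at 397 to 593 and 269 to 325 CPM (-0.83 ± 0.19, edgeR adjusted p = 0.0800, DESeq2 adjusted p = 2.89e-04).

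Of 28 genes tested for GCN2, the kinase that senses uncharged tRNA, and for ATF4 and its targets, edgeR gave 10 higher and 2 lower before adjustment (unadjusted p under 0.05, against 5.2% and 6.22% of all genes tested), and the list's median was 0.46. The list held 34 symbols, of which 32 had a row. TRIB3, MTHFD2, SLC7A11 and GDF15 had only 22, 43, 1 and 9 reads in all and were not tested. NUPR1, a stress-induced target of ATF4, rose from 42.6, 45.4, 30.2 and 25.3 CPM to 122, 90.1, 130 and 104 CPM (1.64 ± 0.23, edgeR adjusted p = 0.0136), the only gene of these 28 called by edgeR in this fit. With 3 libraries per group its call ended, though not its fold change, which was 1.72 without 5842A and 9678B (edgeR adjusted p = 0.0605) and 1.82 without both libraries of seal 5572 (edgeR adjusted p = 0.0898). ATF4 itself was at 139, 108, 120 and 142 CPM pre-molt and at 255, 228, 217 and 209 CPM post-molt, with no overlap (0.83 ± 0.18, edgeR adjusted p = 0.0629, limma-voom adjusted p = 0.0420, DESeq2 adjusted p = 1.36e-05). DESeq2 called 5 genes of the list higher (ATF4, NUPR1, ATF3, SLC7A5 and PPP1R15A) and CHAC1 lower, against 3.35% and 3.16% of all genes with an adjusted p. Of these, ATF3, SLC7A5, PPP1R15A and CHAC1 are named after their values were seen, and ATF3 rested on widely spread post-molt values (136 ± 172 CPM, SD). The 19 cytosolic synthetase genes, not limited to targets of ATF4, had a median of -0.02. DESeq2 called 2 of them, both lower (10.5%, against 3.16% of all genes with an adjusted p).

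**Figure D5:**
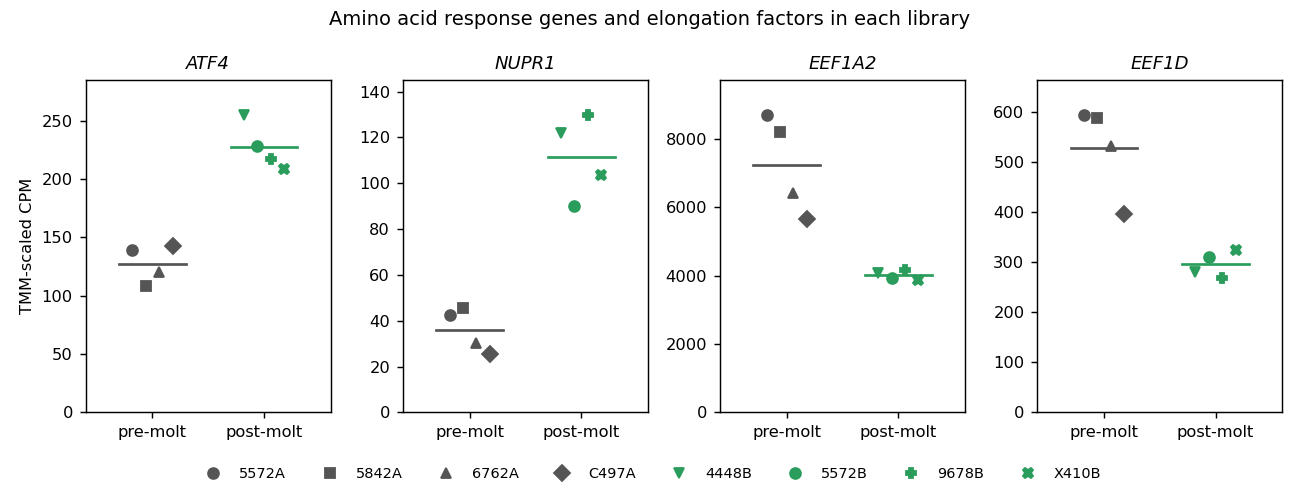
TMM-scaled CPM (y axis, from 0) of ATF4 and NUPR1, genes of the amino acid response, and of the elongation factors EEF1A2 and EEF1D, in each pre-molt (grey) and post-molt (green) library, with group means as lines. The groups are apart in all 4 genes, higher post-molt in ATF4 and NUPR1 and lower in EEF1A2 and EEF1D.

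Other lists held genes that make and modify tRNA. Over all genes tested, 6.22% were lower and 5.2% higher by edgeR at an unadjusted p under 0.05. DESeq2 called 3.16% of genes with an adjusted p lower and 3.35% higher. The lists below were not tested against these shares. For RNA polymerase III and its factors, which transcribe tRNA genes, the median over 21 genes was -0.18, with 2 lower at an unadjusted p under 0.05 (POLR3K, -0.74 ± 0.21, and POLR3C, -0.56 ± 0.23), and DESeq2 called POLR3K lower. Among 26 genes of tRNA processing and export the median was -0.05, and RPP25, a subunit of RNase P, was higher (1.25 ± 0.32, edgeR adjusted p = 0.105, DESeq2 adjusted p = 0.0141) and HSD17B10, of mitochondrial RNase P, lower (-0.60 ± 0.20, edgeR adjusted p = 0.230). Of 55 tRNA modification genes, with a median of -0.05, edgeR gave 1 higher (TRMT2A, 0.78 ± 0.24) and 3 lower before adjustment, OSGEP (-0.83 ± 0.28) with the smallest p of the 3. DESeq2 called TRMT2A higher and QTRT1 lower. Of 6 genes for selenocysteine, whose tRNA is first charged with serine by SARS, edgeR gave 0 before adjustment and DESeq2 called 0, and SEPHS2 (0.18 ± 0.19) and SEPSECS (0.30 ± 0.35) had the smallest p-values. By edgeR 0 genes of these 4 lists passed, except that RPP25 did with no filter on low counts (adjusted p = 0.0449).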

How the data were processed

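Per the labels and the study's methods, the authors made FASTQ files with bcl2fastq 2.20 and mapped the read pairs with STAR, which also counted reads per gene, on the genome of a related species, the Hawaiian monk seal. The deposited table holds these counts as whole numbers, without scaling. The strand setting is not given in the sources used here, so overlapping genes on opposite strands may share reads. The methods and the labels name different library kits.

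The 7 rows without a gene name (0.0115 to 0.0153% of a library) were left out. Counts were tested with edgeR 4.0.16 (TMM, filterByExpr with minimum count 10, quasi-likelihood test) in R 4.3.3, on 4 against 4 libraries without a seal term. DESeq2 1.42.0 and limma-voom (limma 3.58.1) were alternatives. The tests were tested on simulated data. Log2 ratios used a prior count of 2. Replicates are libraries of different seals. Gene symbols are those of the table, and genome coordinates and sequences were not used here.

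The members and lists were chosen with earlier results of these data known. All members but 1, which enters the counts and medians but is not reported here by itself, are named. From each other list the 2 genes with the smallest edgeR p are named, with EPRS, TARSL2 and the scaffold genes, and any others were chosen after their values were seen.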

Additional observations from a re-analysis of the deposited data

Results flagged for a closer look

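In 8 of 152 groups of 4 values tested, 1 library stood apart by Dixon's criterion (the gap to the nearest library, as a part of the group's range, above the 95% critical value), where chance flags about 1 in 20 groups. Pre-molt 5572A was high in TARS (34.4 CPM against 27.8 to 28.3 in the other 3) and in PARS2 (6.99 CPM against 5.43 to 5.63). Post-molt 9678B was high in EARS2 (11.1 CPM against 7.30 to 7.79), and pre-molt 5842A was high in TAP1, an antigen transport gene of the interferon list (10.1 CPM against 5.66 to 6.08). In the log2 ratios, 9678B was low in FARSA over FARS2 (0.31 against 1.37 to 1.55) and in TARS over TARS2 (-1.06 against -0.57 to -0.51). Pre-molt C497A was also low in TARS over TARS2 (-0.84 against -0.31 to -0.23). Post-molt 4448B was high in WARS over WARS2 (9.92 against 4.04 to 5.02).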

How the results depend on the processing

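Of the 35 synthetase genes, 21 kept the sign of their log2 fold change under all 18 alternatives, 15 lower and 6 higher post-molt. The number called lower by edgeR went from 0 to 1 (QARS) with no filter on low counts and to 2 (QARS and KARS) by DESeq2, and stayed at 0 under the other 16 alternatives. The number called higher was 0 under all 18. Over all genes, edgeR called 31 higher and 19 lower. These counts were 129 and 97 with no filter, 335 and 316 by DESeq2, 55 and 39 by limma-voom, 3 and 2 without both libraries of seal 5572, 0 and 0 without 5842A and 9678B (701 and 629 by edgeR at an unadjusted p under 0.05), and 40 and 10 with library sizes not scaled by TMM (added after seeing the data). With 1 library left out at a time they were 7 to 28 and 2 to 21. The higher count moved by over 1.5 times without 5572A, 4448B, 5572B or 9678B, and the lower count without any library other than 6762A and C497A. Without TMM scaling the median of all genes was 0.10, that of the cytosolic genes was 0.12 and the summed cytosolic CPM was 1579 pre-molt and 1503 post-molt. These values without TMM scaling shift because the factors, 0.842 to 1.06 pre-molt and 1.01 to 1.14 post-molt, are left out. Why the factors differ, and the cause of the other shifts, were not tested. No paired analysis was possible because no seal other than 5572 has libraries from both times. WARS2 and YARS2, with the fewest reads of the 35 genes (745 and 1388), had an SE of 1.03 and 0.70, which limits what their values can show. PARS2, with 1888 reads, had an SE of 0.42.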
